A study of Drosophila melanogaster with 4 samples.

Results

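The genes described here are 6 genes of JAK-STAT signalling and of the stem-cell niche in Drosophila melanogaster, compared between ovaries of snf148 mutant and wild-type females. They were chosen by name: upd2, upd3, Socs36E, chinmo, esg and dally. Each of the 6 names matched 1 of the 1283 genes in the authors' deposited tables of differentially expressed genes. All 6 stood higher in snf148 ovaries, from 1.55-fold for dally to 36.4-fold for esg, where 51.8% of the 1283 genes were higher. The 6 genes were chosen with these tables in view, so their shared direction is a description.

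The mutant females were of genotype y w snf[148] v and 3 days old as adults, and the wild-type females were of genotype y w and 0 to 24 hours old. The y and w markers were thus common to both groups, and only the mutant carried v. Wild-type females were labelled as virgins. RNA was sequenced from 2 libraries per genotype. The tables give a single mean FPKM (fragments scaled to transcript length and to the total of mapped fragments) per genotype, so no SD or n accompanies a level below, and the sequencing depth is unknown. Genotype, age and possibly mating status differed together and cannot be told apart in any difference below. The snf product is shared by the U1 and U2 splicing particles, and female splicing of Sex-lethal (Sxl) RNA depends on it. Germ cells of snf148 females lack Sxl protein and grow as tumours, and the comparison asked how the RNA of such ovaries differs.

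The JAK-STAT pathway of the fly is started by secreted Unpaired cytokines, which bind the receptor Domeless and act through the kinase Hopscotch on the transcription factor Stat92E. In the ovary, ligand from polar cells patterns the follicle cells, and pathway activity in cap and escort cells helps to keep germline stem cells in their niche. In the testis, ligand from the hub acts on the neighbouring germline and cyst stem cells. The glypican Dally shapes the reach of the BMP ligand Dpp, the niche signal of the ovary.

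Among the ligands, upd2 stood at 2.67 FPKM in snf148 and 0.0919 FPKM in wild type, a 29.1-fold ratio. The upd3 level was 6.39 FPKM in snf148 and 0.934 FPKM in wild type, a 6.84-fold ratio. The size of these ratios rests on low wild-type levels: with 0.1 FPKM added to both means the log2 ratio of upd2 went from 4.86 to 3.85, and with 1 FPKM added it was 1.75, below the 1.93 of upd3. Both ligand genes were below 1 FPKM in wild-type ovaries and above it in mutant ovaries. FPKM is scaled to transcript length, so the ligands can be set side by side: the upd3 level was 10.2 times that of upd2 in wild type and 2.39 times in snf148. The wild-type value rests on the 0.0919 FPKM of upd2, and the change between genotypes restates the folds above. In the authors' deposited table the adjusted P values were 0.00391 for upd2 and 0.00223 for upd3. The locus of upd2 (FBgn0030904) runs from 18134790 to 18137317 on X, and that of upd3 (FBgn0053542) from 18171266 to 18178631 on X; coordinates here and below are in the tables' own build, for which no name is given. The loci are separated by 33948 bp, and upd2 and upd3 are the only genes of the tables that start within 50 kb of each other there. In the reference gene order upd1, the founding ligand gene, lies next to upd3 on the side away from upd2, with 1 noncoding gene between them. It was not in the tables, which says nothing about its level.

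**Figure D1:**
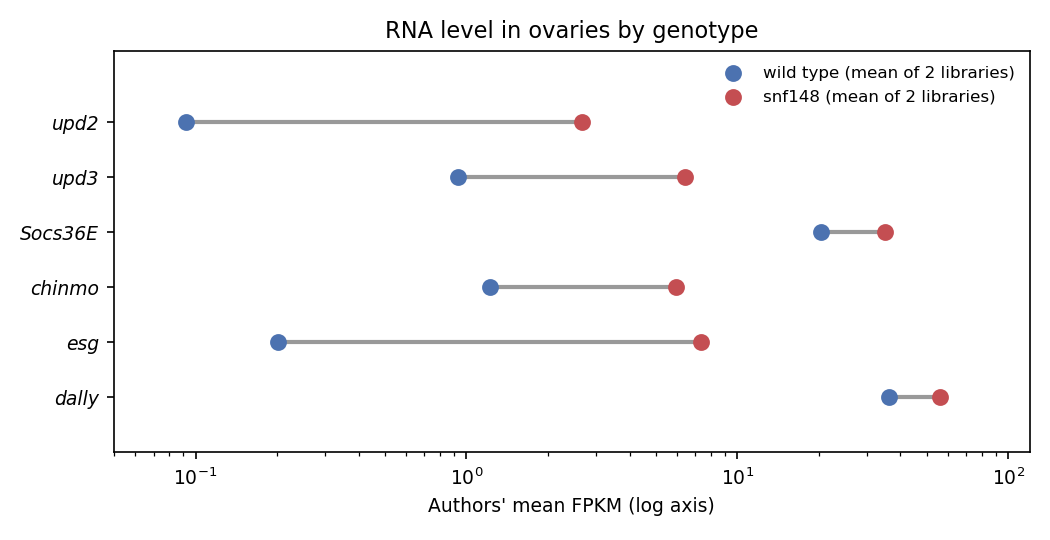
Mean FPKM of each of the 6 genes on a log axis, with wild type and snf148 as points joined by a line; each point is the authors' mean of 2 libraries, and no error is given. Every snf148 point lies to the right of its wild-type point, with the widest gaps for esg (0.202 to 7.34 FPKM) and upd2 (0.0919 to 2.67 FPKM) and the narrowest for dally.

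Socs36E encodes a suppressor of cytokine signalling that Stat92E induces and that dampens the pathway in return. Its level was 35.0 FPKM in snf148 and 20.4 FPKM in wild type, a 1.72-fold ratio; the authors' deposited table has an adjusted P of 0.0110 for it. This ratio ranked 611th of the 665 higher genes. In absolute terms the Socs36E difference was 14.6 FPKM, more than that of either ligand (2.58 FPKM for upd2 and 5.46 FPKM for upd3). Socs36E (FBgn0041184) lies at 18138675 to 18152410 on 2L. The next genes of the tables followed close by and went opposite ways. CG17681, which starts 712 bp beyond the end of Socs36E, stood at 2.57 FPKM in snf148 and 0.260 FPKM in wild type. CG15155, which starts 2453 bp beyond the same end, stood at 7.59 FPKM in snf148 and 35.9 FPKM in wild type.

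The chinmo gene encodes a BTB zinc finger factor that is a Stat92E target in the testis, where it keeps cyst stem cells and their male identity. It stood at 5.96 FPKM in snf148 and 1.22 FPKM in wild type, a 4.89-fold ratio. The adjusted P for it in the authors' deposited table was 0.00126, the smallest there, which 466 genes or 36.3% of the tables share. The chinmo locus (FBgn0086758) spans 53425 bp, from 1651258 to 1704682 on 2L, and no other gene of the tables starts within 50 kb of its start. The mutant level of chinmo was close to that of upd3 and esg, all between 5.96 and 7.34 FPKM. Without replicate values, the order of these levels cannot be set against their spread.

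Among the niche factors, esg showed the largest ratio of the 6 genes. It encodes a Snail-family zinc finger repressor that maintains stem cells in the testis niche and in the gut. Its level was 7.34 FPKM in snf148 and 0.202 FPKM in wild type, a 36.4-fold ratio that ranked 72nd of the 665 higher genes; with 1 FPKM added to both means its log2 ratio went from 5.19 to 2.80. It had an adjusted P of 0.00126 in the authors' deposited table. In wild type, 10.6% of the genes in the tables had a lower level than esg, and in snf148 30.9% did. The esg locus (FBgn0287768) lies at 15333864 to 15336140 on 2L. One gene of the tables started within 50 kb of it, CG15262, at 5.25 FPKM in snf148 and 0.208 FPKM in wild type, a 25.3-fold ratio. In the reference order nht, which encodes a testis TAF protein, lies between CG15262 and esg and was not in the tables. The Snail-family paralogues wor and sna were not in them either.

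The glypican gene dally had the highest level of the 6 in both genotypes, at 56.0 FPKM in snf148 and 36.2 FPKM in wild type. Its 1.55-fold ratio was the smallest of the 6 and ranked 657th of the 665 higher genes, so 8 higher genes had a smaller one. Its adjusted P in the authors' deposited table was 0.0419, near the largest one listed, 0.0497. Its difference of 19.8 FPKM was nevertheless the largest of the 6 in absolute terms. The dally locus (FBgn0263930) spans 63688 bp, from 8820605 to 8884292 on 3L. In the reference annotation CG32026, CG43169 and the noncoding gene lncRNA:CR45823 overlap dally, and lncRNA:CR44478 overlaps Socs36E. The libraries were stranded per the labels, but whether strand was used in counting is not given in the sources used here. Part of the dally and Socs36E values may therefore be reads of these genes.

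**Figure D2:**
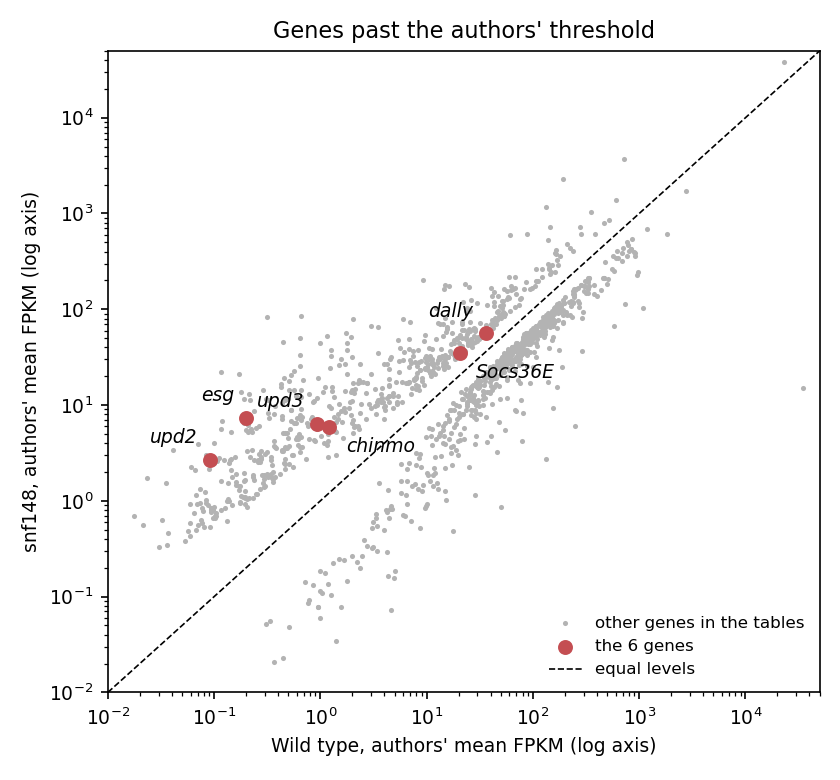
Mean FPKM in snf148 against wild type, both on log axes, for the genes of the tables above 0 in both genotypes; grey points are the other genes, red points the 6 genes, and the dashed line marks equal levels. All 6 genes lie above the line, with upd2 and esg far from it and Socs36E and dally nearest to it of the 6.

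Read against the tables as a whole, the shared direction of the 6 genes has a background of 51.8%, the share of listed genes that were higher in snf148. The authors' adjusted P values imply that 11777 genes were tested, of which the 665 higher genes make up 5.65%. Since the 6 genes were chosen with these tables in view, their presence there and their direction are a description. The median log2 ratio of snf148 over wild type was 2.53 over the 6 genes, 2.37 over the 665 higher genes and 0.69 over all 1283. At least 4-fold differences were seen for 4 of the 6 genes and for 58.2% of the higher genes. An adjusted P of at most 0.01 in the authors' deposited table was held by 4 of the 6 genes and by 63.6% of the higher genes. The level in wild type is the denominator of the ratio, and only genes past the authors' threshold are listed. Ratios therefore differ between the level classes below in part by construction. A place above or below the median of a class is a description. Among the 282 higher genes below 1 FPKM in wild type, which include upd2, upd3 and esg, the smallest log2 ratio listed was 1.90 and the median 3.56. Among the 163 higher genes from 1 to below 10 FPKM, which include chinmo, the median was 1.97. Among the 220 at 10 FPKM and over, which include Socs36E and dally, it was 1.09. The log2 ratios of upd2 (4.86) and esg (5.19) were above the median of their level class, and those of upd3 (2.77), Socs36E (0.78) and dally (0.63) below theirs. The log2 ratio of chinmo was 2.29.

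Of 33 distinct genes on the 3 JAK-STAT lists (ligands and receptors, transduction and regulators, induced genes), 8 were in the tables, 7 higher and 1 lower, where all listed genes were 51.8% higher and 48.2% lower. Their median log2 ratio was 2.17. Of the tested genes, 5.65% were higher and 5.25% lower. The 7 higher genes include upd2, upd3, Socs36E and chinmo, which were chosen with these data in view. The count and the median thus restate that choice in part, and no direction of the pathway is read from them. The receptor gene dome, the kinase gene hop and Stat92E itself were not in the tables, so a change in the core of the pathway could not be read here. Among the induced genes that are not described above, 3 were higher and 1 was lower. TotM, a Turandot gene of the humoral stress response, stood at 9.28 FPKM in snf148 and 1.25 FPKM in wild type, a 7.40-fold ratio. The virus-induced gene vir-1 stood at 163.0 FPKM in snf148 and 81.7 FPKM in wild type, a 2.00-fold ratio. The thioester protein genes went opposite ways: Tep4 was 4.14-fold higher in snf148 (167 against 40.4 FPKM in wild type), and Tep2 was 3.00-fold higher in wild type (26.6 against 8.86 FPKM in snf148). Induced genes thus differed in direction among themselves.

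**Figure D3:**
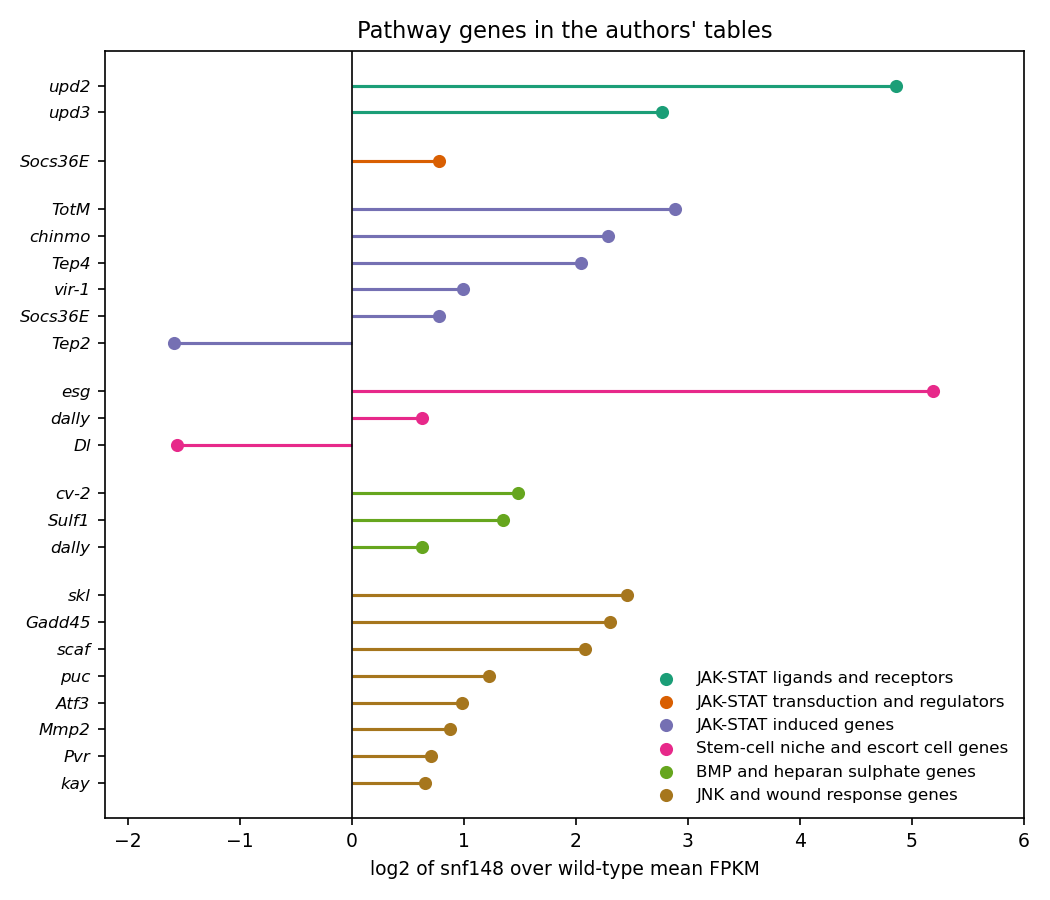
The log2 ratio of snf148 over wild-type mean FPKM for each gene of 6 pathway lists found in the tables, coloured by list; genes on 2 lists are drawn in both. All points lie to the right of 0 except Tep2 at -1.59 and Dl at -1.56, where 51.8% of all genes in the tables were higher in snf148. The points include the 6 genes chosen with these data in view, so no direction of a pathway is read from them.

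Of 32 niche and escort cell genes, 3 were in the tables, 2 higher and 1 lower. Of the tested genes, 5.65% were higher and 5.25% lower, and of the listed genes 51.8% and 48.2%. The 2 higher genes are esg and dally, which were chosen with these data in view, so nothing is read from this count. The lower gene was Delta (Dl), the Notch ligand that terminal filament and germ cells present in the ovary. Its level was 13.2 FPKM in snf148 and 39.1 FPKM in wild type. Of 27 BMP and heparan sulphate genes, 3 were in the tables, 3 higher and 0 lower, where 51.8% of all listed genes and 5.65% of the tested genes were higher; with 3 genes, 1 of them dally, nothing is read from this count. Sulf1, which removes sulphate groups from heparan sulphate chains such as those of Dally, stood at 51.0 FPKM in snf148 and 20.04 FPKM in wild type. The BMP-binding protein gene cv-2 stood at 10.9 FPKM in snf148 and 3.88 FPKM in wild type. The genes dpp, tkv and Mad, for the niche ligand, its receptor and its transcription factor, were not in the tables. Of 16 BTB zinc finger and Snail-family genes, chinmo and esg were the 2 in the tables, both higher. The shares are again 5.65% of the tested genes and 51.8% of the listed ones. Since both genes were chosen with these data in view, nothing is read from this count.

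Unpaired genes are also induced by JNK signalling in wounded or stressed fly tissue, so a list of that response was set beside them. Of its 21 genes, 8 were in the tables, 8 higher and 0 lower, with a median log2 ratio of 1.10. The count was 4 at an adjusted P of at most 0.01 and 3 at a minimum of 4-fold. The shares to read this against are again 5.65% of the tested genes and 51.8% of the listed ones. Others on the list, among them Mmp1, egr, hep, bsk, Jra, rpr and hid, were not in the tables. No activity of JNK signalling is read from the count, and its part in the levels of upd2 and upd3 was not tested. The phosphatase gene puc, a feedback target of JNK, stood at 50.1 FPKM in snf148 and 21.4 FPKM in wild type. Gadd45, a stress-induced gene, showed a 4.95-fold ratio, at 46.8 FPKM in snf148 and 9.46 FPKM in wild type. The Fos gene kay stood at 47.1 FPKM in snf148 and 29.9 FPKM in wild type, and the receptor tyrosine kinase gene Pvr at 54.7 FPKM in snf148 and 33.6 FPKM in wild type. The ratios of kay and Pvr were of the size of those of Socs36E and dally.

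**Figure D4:**
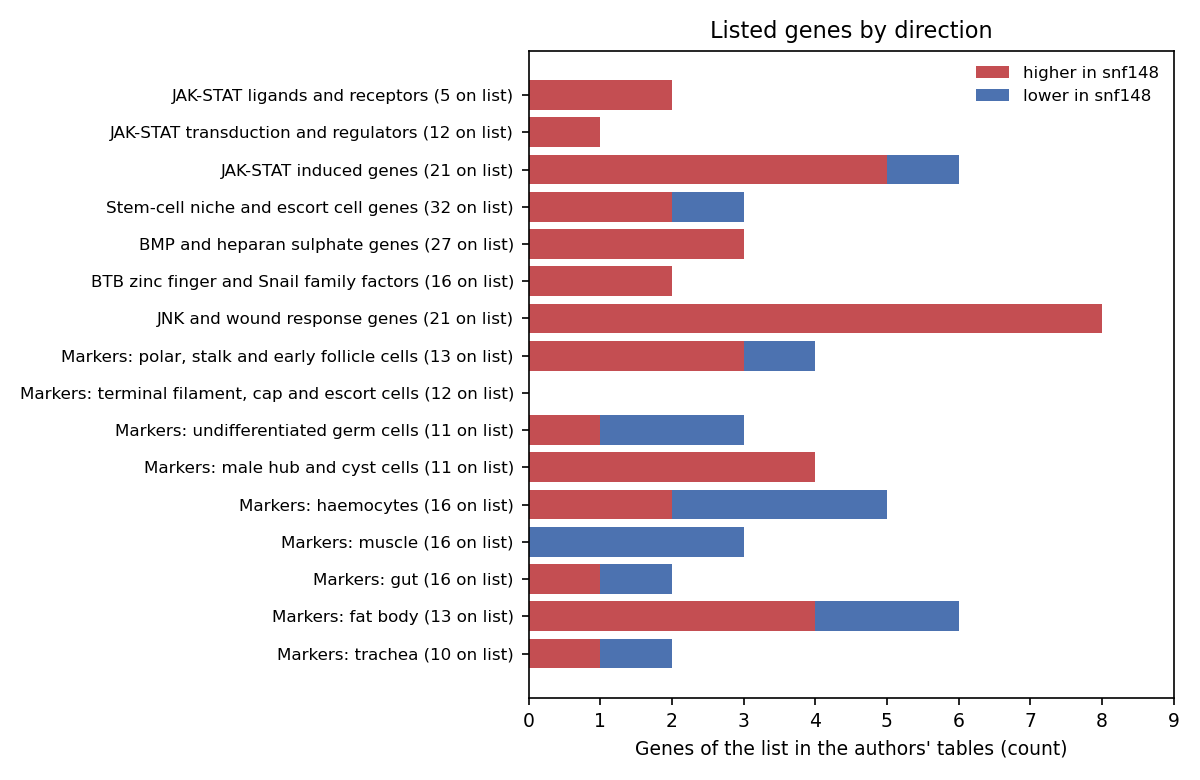
Number of genes of each of 16 lists found in the tables, higher (red) or lower (blue) in snf148, with the list size in brackets. The JNK list has 8 higher and 0 lower genes, and the list of terminal filament, cap and escort cell markers has 0 genes in the tables.

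In whole ovaries, a change in the number of cells of a type and a change in RNA per cell cannot be told apart. Markers of several cell types were therefore read beside the 6 genes, some of them of cells known to express 1 or more of these genes. For each marker count below, the background is that 5.65% of the tested genes were higher and 5.25% lower, or 51.8% and 48.2% of the listed genes. With 0 to 6 genes found per marker list, no direction of a list is read from its count. A summed level below covers only the markers found, and 1 gene can make up most of it. Of 13 markers of polar, stalk and early follicle cells, 3 were higher and 1 was lower, with a summed level of 189 FPKM in snf148 and 73.9 FPKM in wild type. Besides upd3, Fas3, a homophilic adhesion protein, stood at 165 FPKM in snf148 and 53.2 FPKM in wild type. Fas3 alone thus made up most of the summed level in both genotypes. The transcription factor gene cas was 3.12-fold higher in snf148, at 11.7 against 3.74 FPKM, and pnt was 2.38-fold higher in wild type, at 16.1 against 6.75 FPKM. Of 12 markers of terminal filament, cap and escort cells, 0 were in the tables. Of 11 markers of male hub and cyst cells, 4 were in the tables, 4 higher and 0 lower against 51.8% higher among listed genes, with a summed level of 184 FPKM in snf148 and 55.5 FPKM in wild type. These were Fas3, chinmo, esg and upd3, so 3 of the 4 are genes chosen with these tables in view and the fourth is also an ovarian follicle cell gene. Most of the summed level of this list was again Fas3.

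Of 11 markers of undifferentiated germ cells, 1 was higher and 2 were lower, where listed genes as a whole were 51.8% higher and 48.2% lower. The differentiation factor gene bgcn stood at 21.1 FPKM in snf148 and 1.78 FPKM in wild type. The gap junction gene zpg was lower in snf148, at 109 against 228 FPKM, as was Sxl, at 66.6 against 110 FPKM. Their summed level was 196 FPKM in snf148 and 340 FPKM in wild type. The mutated gene snf was not in the tables, so the label could not be checked from its RNA.

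Cells outside the ovarioles can express upd3, in haemocytes, or esg, in gut and trachea. Of 16 haemocyte markers 2 were higher and 3 were lower, near the 51.8% and 48.2% of all listed genes, with a summed level of 754 FPKM in snf148 and 1426 FPKM in wild type. The peroxidasin gene Pxn stood at 94.8 FPKM in snf148 and 24.6 FPKM in wild type, whereas Nplp2 stood at 362 FPKM in snf148 and 906 FPKM in wild type. The collagen genes Cg25C and vkg were 1.79-fold and 1.56-fold higher in wild type. The haemocyte factor gene lz stood at 0.483 FPKM in snf148 and 0.0565 FPKM in wild type. Apart from esg itself, the gut list had 1 of its 16 genes in the tables, Jon65Aiv, lower at 0.773 FPKM in snf148 against 4.25 FPKM in wild type. Its summed level with esg was 8.12 FPKM in snf148, most of it esg, and 4.46 FPKM in wild type, most of it Jon65Aiv. The trachea list, of 10 genes, had esg and Gasp, the latter lower at 13.7 FPKM in snf148 against 34.6 FPKM in wild type. Its summed level was 21.0 FPKM in snf148 and 34.8 FPKM in wild type.

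Of 16 muscle markers 3 were in the tables, 0 higher and 3 lower, against 48.2% lower among listed genes and 5.25% among tested genes, with a summed level of 70.0 FPKM in snf148 and 154 FPKM in wild type. Most of this sum came from Act87E, at 66.1 FPKM in snf148 and 125 FPKM in wild type. Act79B was the furthest apart, at 1.02 FPKM in snf148 and 15.4 FPKM in wild type. Of 13 fat body markers 4 were higher and 2 lower, against 51.8% and 48.2% of listed genes, at 2595 FPKM in snf148 and 701 FPKM in wild type in sum. Most of this sum came from Yp1, Yp2 and Yp3, yolk protein genes that ovarian follicle cells express as well. No marker found in the tables was at 0 in either genotype, and markers outside the tables were not analysed here. The part of these cell types in the levels of the 6 genes was not tested.

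The genes of the tables most like each of the 6 were found by their distance in log2 mean FPKM over both genotypes, a likeness over 2 points. The gene nearest to esg was CG1394, at 7.25 FPKM in snf148 and 0.186 FPKM in wild type, followed by CG13597 (tbrd-1) and CG8119. Nearest to upd2 were CG12692, at 2.86 FPKM in snf148 and 0.0932 FPKM in wild type, CG11929 and the proteasome subunit paralogue Rpt4R. For upd3 they were CG4839, CG32706 and CG13840, all between 5.80 and 5.98 FPKM in snf148. For chinmo they were net, KP78b and Clect27, with net at 5.62 FPKM in snf148 and 1.14 FPKM in wild type. For Socs36E they were eIF4G2, at 33.8 FPKM in snf148 and 20.4 FPKM in wild type, the Toll-family gene 18w and CG1399. For dally they were l(1)G0232, the flotillin gene Flo-1 and CG10737, with l(1)G0232 at 56.2 FPKM in snf148 and 36.5 FPKM in wild type.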

How the data were processed

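Libraries were made from DNase-treated total RNA with a stranded kit and read as paired ends, per the labels' protocols. TopHat2 2.0.9 and Cuffdiff (no version) were used, per the submitters' processing notes. For the build, the annotation and the counting options, the entry is: not given in the sources used here. The 2 deposited tables list the genes past the authors' threshold. Per the file headers, they give the authors' mean FPKM per genotype, the authors' log2 ratio of wild type to snf148, and the authors' P value and adjusted P value. No per-library values were analysed here, so no test was run, and the planned limma fit was not possible. The authors' P values rest on 2 libraries per genotype, which the sources do not tie to separate flies. Which spread they measure cannot be said here, since the options of the test are not given.

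Direction and folds were computed as snf148 over wild type from the deposited mean FPKM, with no pseudocount. Genes at 0 in one genotype were kept in counts and ranked beyond all finite ratios in medians. Loci starts were moved to count from 1, since spans computed with starts counted from 0 equalled the reference length in 439 cases, and with starts counted from 1 in 7. RefSeq release 6 was used only for names, gene order and overlaps.

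The number of tested genes was taken as the whole number for which each adjusted P value is a Benjamini-Hochberg value with a whole rank. With 11777 genes this held for all 108 distinct values, within a relative tolerance of 6e-06; the next best number gave 12. In 20 simulated data sets the true number was recovered in 20.

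The 6 genes and 16 lists were chosen with earlier results of these data known. Named genes were the 6 genes, Sxl, up to 4 genes per list and direction with the highest FPKM, the 3 nearest genes by level, and genes of the tables starting within 50 kb. Genes named as not in the tables were chosen afterwards. Alternatives were pseudocounts of 1 and 0.1 FPKM, the authors' own log2 fold change, a limit of 0.01 on the adjusted P value, at least 4-fold, and at least 1 FPKM in the higher genotype. Python 3.11.15, pandas 2.3.3 and NumPy 2.4.6 were used.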

Additional observations from a re-analysis of the deposited data

How the results depend on the processing

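All 6 genes stayed higher in snf148 under every pseudocount and with the authors' own log2 fold change, which was fixed in advance. The same constant added to both means cannot change which is higher, and the authors' ratio restates the ratio of these means. Only the size of a ratio could move. A log2 ratio was taken as moved when it shifted by at least 1.5-fold, since no replicate spread is at hand. With a pseudocount of 1 FPKM the log2 ratios of the weakly expressed genes shrank by construction, to 1.75 for upd2, 1.93 for upd3, 1.65 for chinmo and 2.80 for esg, and with 0.1 FPKM that of upd2 became 3.85. The other 13 alternative values moved by less.

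With the adjusted P limited to 0.01 the tables held 423 higher and 348 lower genes, and 4 of the 6 genes, without Socs36E and dally. This left 0 JAK-STAT regulators, 1 higher niche gene, 4 JNK genes, 1 lower germ cell marker, 1 higher haemocyte marker and 0 lower gut markers. At least 4-fold left 387 higher and 128 lower genes, and 4 of the 6 genes, again without Socs36E and dally. It left 0 JAK-STAT regulators, 3 higher and 0 lower induced genes, 1 higher and 0 lower niche genes, 0 BMP and heparan sulphate genes and 3 JNK genes. Among markers it left 1 higher and 0 lower polar and follicle cell genes, 0 lower germ cell genes, 1 higher and 0 lower haemocyte genes, 2 higher and 0 lower fat body genes and 0 lower tracheal genes. At least 1 FPKM left 590 of the 665 higher and 604 of the 618 lower genes, all 6 genes and 1 higher haemocyte marker. Most genes of the tables passed this limit, so nothing particular to the 6 genes is read from it. These counts fall because fewer genes are counted.

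No paired analysis was possible because the tables give group means and no value for a library; leaving out a replicate was not run for the same reason. The motif search in promoters was not run, since no promoter sequence was used here. Depth is unknown, so the precision of levels under 1 FPKM, as for upd2 and esg in wild type, cannot be given.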
